A study of Mus musculus with 16 samples.

Results

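The antigen presentation genes described here are the class I genes H2-K1, H2-D1, B2m, Tap1, Tap2, Tapbp, Psmb8 and Psmb9 and the class II genes Cd74 and H2-Aa. Every array probe named for these genes, by its current or an older symbol, was taken. That gave 10 of the 23362 genes and 21 of the 39788 probes kept for testing, and no probe of the 10 genes was lost to the filter on dim signal. The study measured mouse retinas, taken 24 h after treatment, on 16 arrays of 2 colours. The groups were a fusion of the Notch ligand Dll4 with an antibody Fc part (Dll4-Fc, n = 4), VEGF-A (n = 5), VEGF Trap (n = 3) and the Fc part alone (hFc, n = 4). All came from C57Bl6 mice. Pups of 8 days received 4 µg of Dll4-Fc, 1 µg of VEGF-A or 4 µg of hFc by injection into the vitreous, so the hFc retinas share the injection. For VEGF Trap the labels give neither the dose, the route nor the age at treatment. VEGF-A is a growth factor of vessels and VEGF Trap a decoy receptor that captures it. Dll4 is a ligand of Notch receptors on endothelial cells, and its soluble form can disturb that signal. The labels do not name the animal behind each sample, so the p-values measure the spread between these samples, which may be technical. The titles of hFc retinas 1 and 2 share a code whose meaning is not given. With these 2 averaged as 1 sample, the calls against hFc were 8 of 10 for Dll4-Fc (Tap2 lost, adjusted p = 0.0934), 1 for VEGF-A and 0 for VEGF Trap in limma.

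Class I molecules carry peptides made inside a cell to its surface for inspection by CD8 T cells. Proteasomes cut the peptides, a transporter moves them into the endoplasmic reticulum, and loading factors place them on a heavy chain paired with beta-2 microglobulin. Interferons raise most genes of this route and replace the standard catalytic proteasome subunits by those of the immunoproteasome. Class II molecules present peptides from outside the cell to CD4 T cells. In the retina they are known mainly from microglia, macrophages and dendritic cells.

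Each value below is a log2 ratio of a retina in Cy3 over a common reference in Cy5, which was a pool of equal RNA of the experiment. A value of 0 therefore equals the pool, and the groups were compared with each other rather than with 0. A gene was represented by its probe with the highest mean Cy3 signal, and a change was called at an adjusted p below 0.05 in a limma fit of all 4 groups. The 5 retinas given VEGF-A and the 3 given VEGF Trap shared 2 slides. All Dll4-Fc arrays lay on a slide of that group alone, and all hFc arrays on another. In every comparison that involves Dll4-Fc or hFc, the slide therefore cannot be told apart from the treatment. On the hFc arrays the scanner software marked 2350 to 2599 spots as outliers, against 12 to 213 on the other arrays, and these spots were left out. For that reason the brightest probe of H2-K1 kept 1 hFc value and those of Psmb8 and Cd74 kept 2 each. Of 10 rod and cone markers, 9 were on the array, and all 9 were above background on all 16 arrays.

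All 7 probes of the heavy chains H2-K1 and H2-D1 are shown, numbered by mean Cy3 signal with the brightest first, because class I genes resemble each other and a probe may catch more than its own transcript. Capitals mark the longest run of bases shared with a probe of another gene on the same array, where that run reached 20 bases.
H2-K1 probe 1: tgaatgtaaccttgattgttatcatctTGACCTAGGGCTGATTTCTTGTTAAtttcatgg
H2-K1 probe 2: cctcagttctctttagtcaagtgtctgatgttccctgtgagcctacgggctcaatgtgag
H2-K1 probe 3: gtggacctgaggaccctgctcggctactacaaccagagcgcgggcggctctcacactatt
H2-K1 probe 4: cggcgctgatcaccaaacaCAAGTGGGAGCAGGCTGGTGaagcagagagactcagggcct
H2-D1 probe 1: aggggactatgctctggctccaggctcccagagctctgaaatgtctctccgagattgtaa
H2-D1 probe 2: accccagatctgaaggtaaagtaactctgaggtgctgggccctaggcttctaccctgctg
H2-D1 probe 3: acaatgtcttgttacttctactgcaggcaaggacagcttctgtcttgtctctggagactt
H2-K1 probe 1 shared 25 bases with a probe of LOC56628, and the pair matched at 49 of 57 aligned bases. H2-K1 probe 4 shared 20 bases with a probe of H2-Q10, another class I heavy chain. H2-K1 probe 2 shared at most 17 bases, with a probe of H2-Q1, and H2-K1 probe 3 at most 16, with a probe of H2-Bl that matched it at 46 of 59 aligned bases. The H2-D1 probes shared at most 12 to 14 bases with a probe of another gene. The array design also lists H2-D1 probe 1 under a LOC56628 transcript, so H2-K1 and H2-D1 values can hold signal of related heavy chains. A genome build for the probes is not stated in the labels or headers.

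The stretches of 250 bases before the RefSeq starts are shown because most members moved together. The table gave 8 of the 10 members in build GRCm38.p6, and Tap2 and Cd74 are only named. Capitals mark matches on either strand to 3 motifs, where N is any base. They were the NF-kB site (GGG, NN, TT, N and CC in a row), the interferon-stimulated response element (GAAA, NN and GAAA in a row) and the Y box CTGATTGG.
H2-K1, chr17:34000348-34000597, minus strand: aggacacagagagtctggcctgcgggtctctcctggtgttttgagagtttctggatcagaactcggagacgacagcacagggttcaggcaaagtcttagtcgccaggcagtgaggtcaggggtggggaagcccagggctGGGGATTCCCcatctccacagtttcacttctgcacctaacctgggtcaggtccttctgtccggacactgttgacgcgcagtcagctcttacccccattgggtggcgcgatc
H2-D1, chr17:35262844-35263093, plus strand: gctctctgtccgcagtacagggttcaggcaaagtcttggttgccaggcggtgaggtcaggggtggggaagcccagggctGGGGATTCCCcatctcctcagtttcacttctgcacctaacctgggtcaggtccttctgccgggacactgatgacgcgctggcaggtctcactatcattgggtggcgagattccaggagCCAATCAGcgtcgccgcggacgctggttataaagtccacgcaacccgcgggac
B2m, chr2:122147437-122147686, plus strand: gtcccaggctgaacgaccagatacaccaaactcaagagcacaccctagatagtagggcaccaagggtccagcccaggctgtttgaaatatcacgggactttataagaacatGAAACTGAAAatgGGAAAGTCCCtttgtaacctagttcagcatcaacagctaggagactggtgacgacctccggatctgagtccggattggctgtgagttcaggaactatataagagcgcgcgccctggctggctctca
Tap1 and Psmb9, shared stretch, chr17:34187331-34187555, plus strand: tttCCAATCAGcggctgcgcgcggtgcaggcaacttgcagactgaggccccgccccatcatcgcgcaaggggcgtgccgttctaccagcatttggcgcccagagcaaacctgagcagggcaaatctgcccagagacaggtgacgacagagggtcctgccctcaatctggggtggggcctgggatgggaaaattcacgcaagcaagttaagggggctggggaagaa
H2-Aa, chr17:34287824-34288073, minus strand: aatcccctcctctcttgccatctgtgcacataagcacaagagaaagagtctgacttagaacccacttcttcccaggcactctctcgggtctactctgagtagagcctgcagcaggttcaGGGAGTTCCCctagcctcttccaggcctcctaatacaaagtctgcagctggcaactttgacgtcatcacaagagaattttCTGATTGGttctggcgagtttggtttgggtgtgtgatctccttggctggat
The kB letters stood before H2-K1, H2-D1, B2m and H2-Aa, which is 4 of 8 members, against 4.11% of 32851 mouse promoters of the same length. The exact letters of the interferon element stood before B2m alone (2.98% of promoters). They lay 139 to 130 bases ahead of its start, next to its kB site at 126 to 117 bases. Looser forms of the element were not searched, so other stretches may still hold such a site. Y box letters stood before H2-D1, H2-Aa, Psmb9 and Tap1 (3.83% of promoters), of which the last pair share 1 site in the 225 bases between their starts. The stretches before Tapbp and Psmb8 did not hold any of these letters and are not shown. A match describes the letters only, and no binding was measured.

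Both classes were higher in Dll4-Fc than in hFc retinas. Of the 10 members, 9 rose, from Tap2 at 1.32-fold to H2-Aa at 9.64-fold, and none fell. Among all 22811 genes tested in that comparison, 2.92% rose and 1.43% fell, with a median log2 change of −0.02. All 4 Dll4-Fc arrays lay above every measured hFc array for 10 of 10 members, as they did for 6.09% of all genes. More cells of a type and more RNA per cell cannot be told apart in whole retinas.

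The heavy chains H2-K1 and H2-D1 hold the peptide at the cell surface. On H2-K1 probe 2, the brightest with all 4 hFc values, the log2 ratios were 1.12, 0.65, 1.60 and 0.70 in Dll4-Fc retinas, against −1.29, −1.30, −1.30 and −1.20 in hFc retinas. The gap between the groups was wider than the spread within either, and the change was 2.29 ± 0.17 (SE, adjusted p = 1.1e-06). The brightest H2-K1 probe gave 1.1, 0.56, 1.61 and 1.01 in Dll4-Fc retinas and −1.50 in the single hFc retina it kept, a change of 2.57 ± 0.32 (SE, adjusted p = 0.000438). With outlier spots kept, its hFc values were −1.72, −1.50, −1.63 and −1.58. H2-K1 probe 4 gave a change of 2.38, and probe 3 a smaller one of 1.61 ± 0.18 (SE, adjusted p = 4.6e-05), or 3.05-fold against 5.94-fold for probe 1. H2-D1 had 0.96, 0.68, 1.36 and 0.45 in Dll4-Fc retinas, against −0.51, −0.53, −0.53 and −0.52 in hFc retinas. The hFc values were nearly equal, the lowest Dll4-Fc value came from retina 4, and H2-D1 rose by 1.38 ± 0.15 (SE, adjusted p = 4.6e-05). H2-D1 probe 3, which was dim, did not move with the other 2: it had 0.57, 0.50, 0.36 and −0.06 in Dll4-Fc retinas and 0.12, 0.34, −0.00 and 0.48 in hFc retinas (change 0.11, adjusted p = 0.845).

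B2m encodes beta-2 microglobulin, the light chain that every class I heavy chain needs. Its log2 ratios were 0.55, 0.70, 1.27 and 1.17 in Dll4-Fc retinas, against −1.31, −1.42, −1.50 and −1.64 in hFc retinas. The groups lay far apart, and B2m rose by 2.39 ± 0.19 (SE, adjusted p = 2.3e-06), or 5.23-fold. Its other probes gave 2.43 and 2.07, but both were dim, with median Cy3 signals of 11.8 and 48.4 against 448 for the brightest. In the Cy3 signal alone, without the reference channel, the B2m change was 1.74 and did not pass (adjusted p = 0.0782).

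Tap1 and Tap2 form the peptide transporter, and Tapbp (tapasin) bridges it to the class I molecule. Tap1 had 0.83, 0.97, 1.5 and 0.09 in Dll4-Fc retinas, against −0.55, −0.44, −0.51 and −0.41 in hFc retinas. Dll4-Fc retina 4 lay closest to the hFc retinas, and Tap1 rose by 1.33 ± 0.20 (SE, adjusted p = 0.000801). Tap2 had 0.37, 0.33, 0.74 and 0.21 in Dll4-Fc retinas, against 0.07, −0.07, −0.03 and 0.07 in hFc retinas. The groups were separate but close, and the Tap2 rise of 0.40 ± 0.11 (SE, adjusted p = 0.0451) lost its call when any of the 4 hFc retinas or Dll4-Fc retina 1, 2 or 3 was left out (adjusted p = 0.0644 to 0.133). The other Tap2 probe gave 0.43 with separate groups and did not pass (adjusted p = 0.21). Tapbp had 0.45, 0.45, 0.63 and 0.06 in Dll4-Fc retinas, against −0.16, −0.14, −0.20 and −0.06 in hFc retinas. It was the member without a call (change 0.54, 95% interval 0.21 to 0.86, adjusted p = 0.074), and without Dll4-Fc retina 4 it passed at 0.65 (adjusted p = 0.0257).

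Psmb8 and Psmb9 are catalytic subunits of the immunoproteasome. Psmb9 had 1.15, 0.95, 1.71 and 0.41 in Dll4-Fc retinas, against −0.76, −0.83, −0.77 and −0.96 in hFc retinas. Dll4-Fc retina 3 was the highest and retina 4 the lowest, as for H2-D1 and Tap1, and Psmb9 rose by 1.88 ± 0.21 (SE, adjusted p = 4.1e-05). The Psmb8 probe with all hFc values had 0.92, 0.90, 1.68 and 0.74 in Dll4-Fc retinas, against −0.99, −0.98, −0.99 and −1.27 in hFc retinas. It rose by 2.12 ± 0.18 (SE, adjusted p = 3.5e-06), and the brightest probe, with 2 hFc values, by 2.01 ± 0.27 (SE, adjusted p = 0.000497). The brightest probe's adjusted p was 0.0558 when only these 2 groups entered the fit.

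The 2 class II genes had the largest changes of the 10, and H2-Aa the widest spread. Cd74, the invariant chain that guards the class II groove, had 1.94, 0.59, 1.51 and 1.46 in Dll4-Fc retinas, against −1.80 and −1.44 in the 2 hFc retinas measured. It rose by 2.99 ± 0.29 (SE, adjusted p = 3.5e-05), or 7.96-fold. H2-Aa, the alpha chain of the class II molecule I-A, had 2.42, −0.26, 1.86 and 1.53 in Dll4-Fc retinas, against −2.35, −1.65, −1.89 and −1.63 in hFc retinas. Dll4-Fc retina 2 was the lowest for both genes and lay well below the other 3 for H2-Aa, though still above every hFc retina. H2-Aa rose by 3.27 ± 0.44 (SE, adjusted p = 0.00028), and its other probe by 2.71 ± 0.41 (SE, adjusted p = 0.000802). The Cy3 signal of its brightest probe was low in hFc retinas, at 11.3 to 18.4, against 62.5 to 391 in Dll4-Fc retinas.

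**Figure D1:**
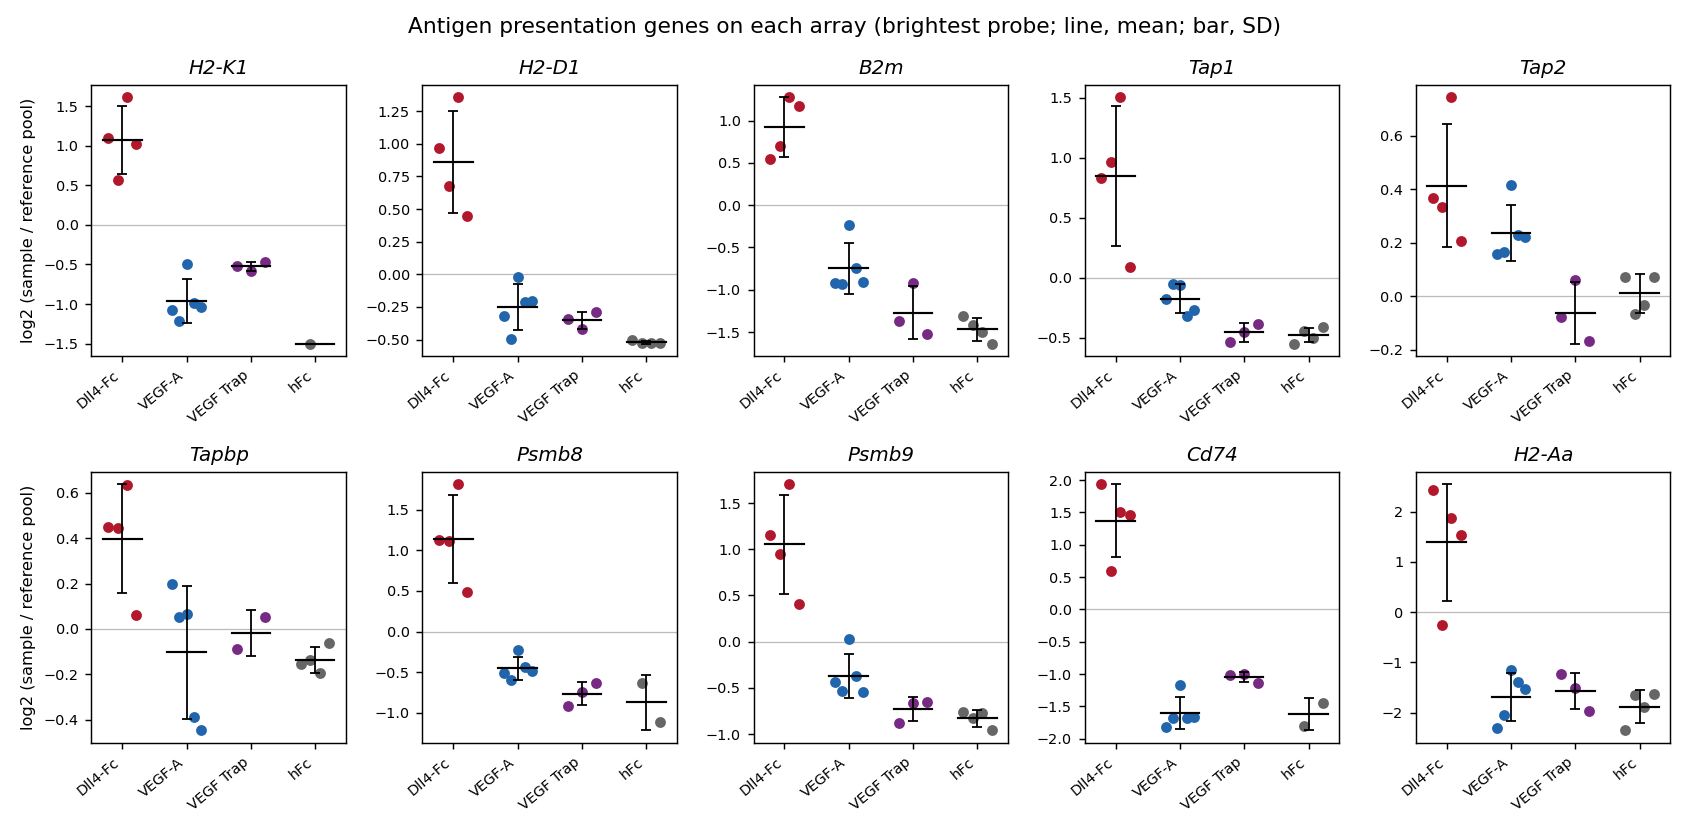
Log2 ratio of sample over reference pool (vertical axes) for each of the 10 antigen presentation genes, 1 point per array. The Dll4-Fc, VEGF-A, VEGF Trap and hFc groups stand side by side, with the group mean as a line and the SD as a bar. The Dll4-Fc points lie above all hFc points in every panel, with the narrowest gap for Tap2 and Tapbp.

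With VEGF-A, B2m was the member whose brightest probe rose. Its log2 ratios were −0.92, −0.93, −0.24, −0.74 and −0.91 in VEGF-A retinas, against −1.31, −1.42, −1.50 and −1.64 in hFc retinas. VEGF-A retina 3 was the highest, and no values overlapped. The change was 0.72 ± 0.18 (SE, 95% interval 0.33 to 1.11, adjusted p = 0.0209), or 1.64-fold, where 5.68% of all genes rose with VEGF-A. Its other probes gave 0.75 (adjusted p = 0.0954) and 0.45 (adjusted p = 0.285) and overlapped hFc. The call was lost without hFc retina 3 (0.71, adjusted p = 0.0562) and without hFc retina 4 (0.66, adjusted p = 0.0641). The Cy3 signal alone also gave no call (0.89, adjusted p = 0.336), nor did the slide 3 arrays of VEGF-A by themselves (0.54, adjusted p = 0.138).

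The other class I members shifted by 0.03 (Tapbp) to 0.54 (H2-K1) with VEGF-A and did not pass the test. The VEGF-A arrays lay above all measured hFc arrays for 7 of the 10 members, all class I, against 7.62% of all genes. H2-D1, for example, had −0.32, −0.50, −0.02, −0.21 and −0.20 in VEGF-A retinas, against −0.51 to −0.53 in hFc retinas, a change of 0.27 (adjusted p = 0.298). That count rests on the brightest probes. The other H2-D1 probes overlapped hFc (0.10, adjusted p = 0.798, and −0.14, adjusted p = 0.615), as did the other Tap2 probe (0.265). The other Psmb8 probe did not overlap (0.53). With outlier spots kept, H2-K1 had 4 hFc values and passed, at 0.64 (adjusted p = 0.03). The class II genes did not pass either. Cd74 had −1.82, −1.68, −1.17, −1.68 and −1.66 in VEGF-A retinas, against −1.80 and −1.44 in hFc retinas. The Cd74 change was 0.02 (adjusted p = 0.983), and that of H2-Aa was 0.19 (adjusted p = 0.836).

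With VEGF Trap, 0 of the 10 members passed the limma test against hFc, where 2.91% of all genes were called. In that test 1 member, H2-K1, had an unadjusted p below 0.05 in its brightest probe. The share of all genes at that unadjusted level is not given here. H2-K1 had −0.52, −0.58 and −0.47 in VEGF Trap retinas, against −1.50 in the single hFc retina measured (change 0.97, adjusted p = 0.141). H2-K1 probe 2 had −0.46, −0.41 and −0.39 in VEGF Trap retinas, against the 4 hFc values near −1.3 given above. There the groups lay apart and the change of 0.86 ± 0.18 passed (SE, adjusted p = 0.0247). With outlier spots kept, the brightest probe passed as well (1.08, adjusted p = 0.0107). The remaining probes did not pass: H2-K1 probe 4 gave 0.66 (adjusted p = 0.125) and probe 3 gave 0.20 with overlapping groups (adjusted p = 0.591). B2m had −1.36, −0.92 and −1.53 in VEGF Trap retinas and overlapped hFc. Cd74 had −1.01, −0.99 and −1.14 in VEGF Trap retinas, all above the 2 hFc values, with a change of 0.57 (adjusted p = 0.321). The VEGF Trap arrays lay above all measured hFc arrays for 3 of 10 members (H2-K1, H2-D1 and Cd74), against 11.6% of all genes. These comparisons and the one of Dll4-Fc share the same hFc arrays.

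The immunoproteasome and transporter genes showed where the VEGF-A and VEGF Trap retinas lay. Psmb9 had −0.44, −0.53, 0.03, −0.37 and −0.55 in VEGF-A retinas and −0.88, −0.66 and −0.65 in VEGF Trap retinas, beside −0.96 to −0.76 in hFc retinas. VEGF-A lay above both other groups, VEGF Trap overlapped hFc, and the change of VEGF-A over hFc was 0.46 (95% interval 0.04 to 0.87, adjusted p = 0.183). Tap1 had −0.18, −0.05, −0.06, −0.32 and −0.27 in VEGF-A retinas and −0.53, −0.45 and −0.38 in VEGF Trap retinas, beside −0.55 to −0.41 in hFc retinas. The order was the same, with a change of 0.30 for VEGF-A over hFc (adjusted p = 0.392) and of 0.02 for VEGF Trap over hFc (95% interval −0.45 to 0.49, adjusted p = 0.971). The Psmb8 probe with all hFc values had −0.64, −0.71, −0.12, −0.55 and −0.64 in VEGF-A retinas and −0.92, −0.84 and −0.75 in VEGF Trap retinas, beside −1.27 to −0.98 in hFc retinas. Here both groups lay above hFc, by 0.53 with VEGF-A (adjusted p = 0.07) and by 0.22 with VEGF Trap (adjusted p = 0.555).

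For Tapbp the VEGF-A retinas had 0.20, 0.05, 0.07, −0.39 and −0.45, on both sides of the hFc retinas, and the VEGF Trap retinas had −0.09 and 0.05, with the second array without a value. H2-Aa had −2.31, −2.04, −1.16, −1.39 and −1.52 in VEGF-A retinas and −1.24, −1.52 and −1.96 in VEGF Trap retinas, and both overlapped the hFc retinas. Its interval for VEGF-A over hFc ran from −0.70 to 1.09, so these arrays do not exclude a change within that range, in either direction. H2-K1 probe 2 had −0.90, −0.85, −0.54, −0.96 and −1.0 in VEGF-A retinas, below all 3 VEGF Trap retinas and above all 4 hFc retinas. Its change of VEGF-A over hFc was 0.42 (adjusted p = 0.122), while probe 4 (0.39) and probe 3 (0.10) overlapped hFc.

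Endothelial markers moved beside these shifts. Their mean log2 ratio was 0.52 to 0.59 in VEGF-A retinas and −0.92 to −0.80 in VEGF Trap retinas, against −0.32 to −0.23 in hFc retinas. Of 10 markers, 8 rose and 1 fell with VEGF-A, 9 fell and 0 rose with VEGF Trap, and 10 were higher in VEGF-A than in VEGF Trap retinas. Their part in the shifts of the class I members was not tested.

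VEGF-A and VEGF Trap retinas shared slides and could be compared without hFc. Of the 10 members 0 passed the limma test there, where 18% of all genes were called at the adjusted threshold. At an unadjusted p below 0.05 in that test there were 3 members, and the share of all genes at that level is not given here. B2m was higher with VEGF-A by 0.52 (adjusted p = 0.086) and Tap2 by 0.30 (adjusted p = 0.0747), and Cd74 was lower by a log2 change of −0.56 (adjusted p = 0.143). For Tap2 the values were 0.16, 0.17, 0.42, 0.23 and 0.22 in VEGF-A retinas and −0.08, 0.06 and −0.17 in VEGF Trap retinas, with no overlap. VEGF-A arrays lay above all VEGF Trap arrays for 4 members and below them for 1, Cd74, against 12.7% and 12.6% of all genes. On slide 3 alone the Cd74 change was −0.75 (adjusted p = 0.0378), and without VEGF Trap retina 2 B2m passed at 0.70 (adjusted p = 0.0426).

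The Dll4-Fc retinas were also set against the other treated retinas, at unequal doses for VEGF-A. Compared with VEGF-A, 9 of 10 members were higher in Dll4-Fc retinas (background 6.05% of genes), from Tapbp at 0.50 (adjusted p = 0.0346) to H2-Aa at 3.07 (adjusted p = 9.6e-05). The Tapbp values of the groups overlapped. The other Tapbp probe, which had no hFc value, overlapped too and did not pass (0.48, adjusted p = 0.174). Tap2 did not pass, at 0.18 (adjusted p = 0.333). Cd74 had a change of 2.98 (adjusted p = 8.1e-07), and B2m one of 1.67 (adjusted p = 9.6e-06). Compared with VEGF Trap, 9 of 10 members were higher in Dll4-Fc retinas (background 7.64%), from Tap2 at 0.48 (adjusted p = 0.0143) to H2-Aa at 2.96 (adjusted p = 0.000907). Tapbp did not pass, at 0.42 (adjusted p = 0.17). In the Cy3 signal alone B2m lost its call against VEGF-A (0.85, adjusted p = 0.287) and against VEGF Trap (1.36, adjusted p = 0.13). The Tapbp call against VEGF-A was lost without Dll4-Fc retina 1, 2 or 3 or VEGF-A retina 4 or 5, and the Tap2 call against VEGF Trap without VEGF Trap retina 1 or 3.

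**Figure D2:**
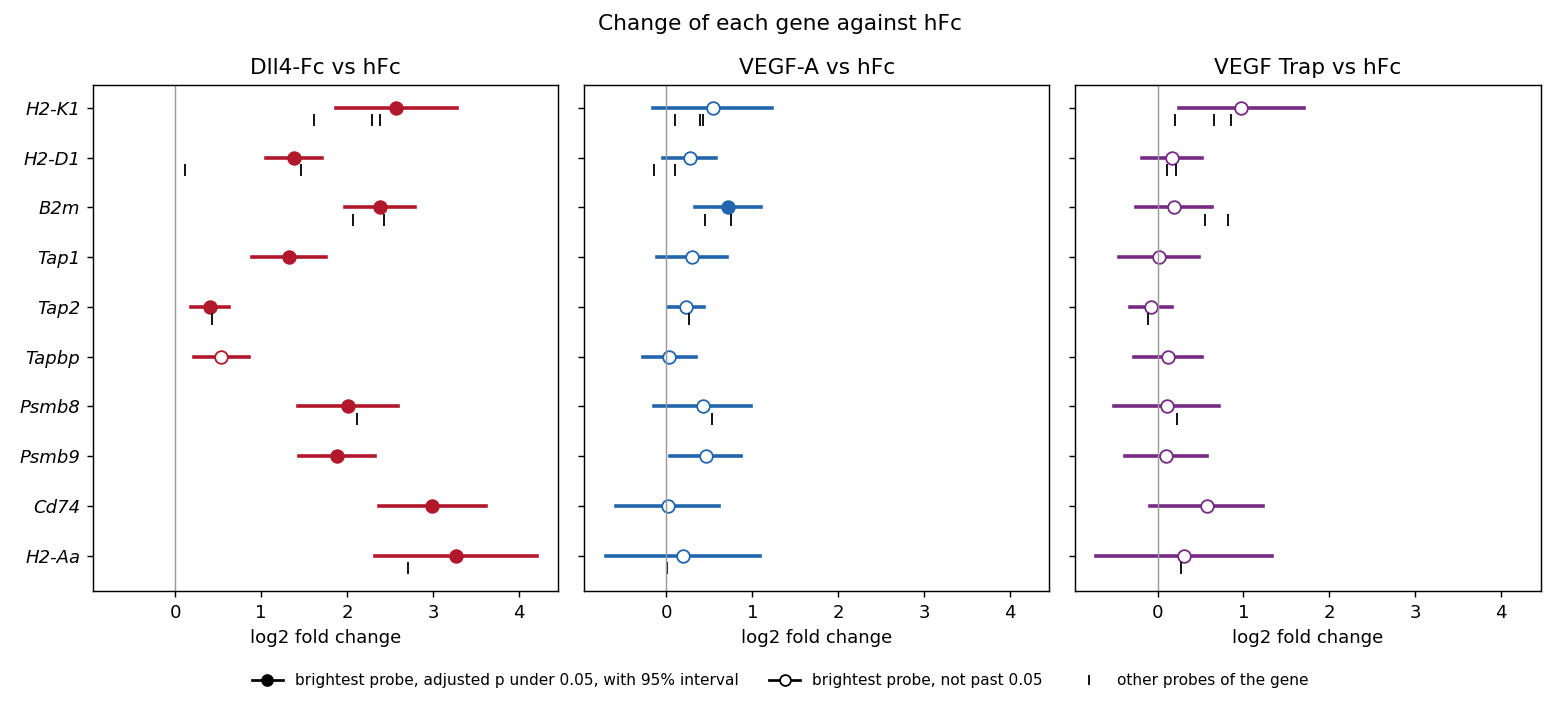
Log2 change of each antigen presentation gene (brightest probe) in Dll4-Fc, VEGF-A and VEGF Trap retinas over hFc retinas, with 95% intervals of the limma fit. Filled points passed at an adjusted p below 0.05, and short ticks are the gene's other probes. The Dll4-Fc changes run from 0.40 for Tap2 to 3.27 for H2-Aa, while B2m at 0.72 is the filled point of VEGF-A against hFc.

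In the wider class I route, heavy chains moved with the members and standard proteasome subunits did not pass the test. Of 13 other class I and class I-like chains tested, 9 rose in Dll4-Fc over hFc retinas and 0 fell (median 0.97). Among them were H2-T23 (1.45), H2-Q10 (1.26) and H2-Q7 (0.97). The 2 other H2-Q10 probes tested gave 0.40 and 0.68, of which 1 passed. Because related heavy chains can share probe signal, these changes may not be independent. Of 10 genes of loading and peptide supply, 1 rose, Psme2b (0.40), named like a subunit of the proteasome activator PA28 (median 0.17). Psmb10, the remaining immunoproteasome subunit, was chosen after its values were seen and had 0.35 (adjusted p = 0.101), while its other probe passed at 0.38. Of 12 standard proteasome subunits 0 passed the limma test and 0 had an unadjusted p below 0.05, with a median of 0.03. The proteasome list lay between 0.07 and 0.14 on average in Dll4-Fc retinas and between −0.03 and 0.09 in hFc retinas. Its subunits moved elsewhere: 12 of 14 were higher in VEGF-A than in VEGF Trap retinas (median 0.40), with Psma1 at 0.59, and 4 of 12 were lower in VEGF Trap than in hFc retinas, with Psmb7 at −0.55.

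Of 15 other class II genes, 6 rose and 0 fell in Dll4-Fc retinas (median 0.49). H2-Ab1, the beta chain that pairs with H2-Aa, rose by 1.32 (adjusted p = 0.000122). H2-DMb1, which helps exchange the peptide, rose by 1.16 (adjusted p = 0.000104), and Ctss, a protease that trims Cd74, by 1.13 (adjusted p = 0.000107). Ciita, the master activator of class II genes, was chosen after its values were seen and rose by 1.56.

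H2-Ab1 was also called with VEGF Trap, where H2-Aa was not, and the difference between the genes was not tested. Its values were 0.31, 0.55 and 0.59 in VEGF Trap retinas, against −0.72, −0.88, −0.70 and −1.15 in hFc retinas. The groups lay apart, and H2-Ab1 rose by 1.34, against a change of 0.31 for H2-Aa (adjusted p = 0.762). VEGF-A retinas had −1.25, −1.28, −1.06, −1.07 and −1.41, below all VEGF Trap retinas, a change of −1.70. The 4 H2-Ab1 probes gave 0.43 to 1.34 in VEGF Trap against hFc, of which 2 passed, and −1.70 to −0.83 in VEGF-A against VEGF Trap, of which 3 passed.

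**Figure D3:**
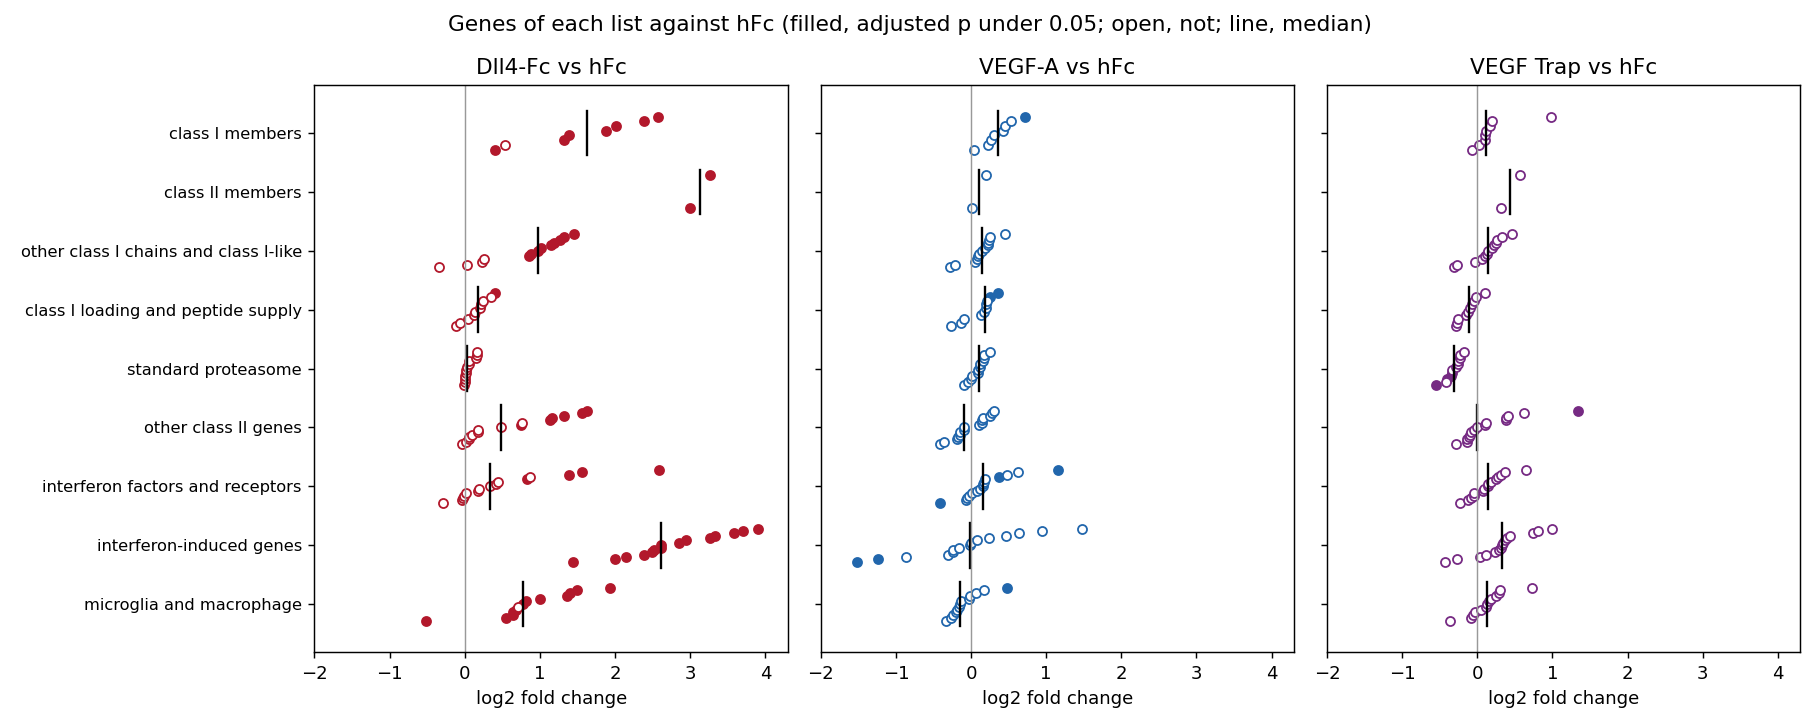
Log2 change of every tested gene of the class I, class II, proteasome, interferon and microglia lists (rows) in Dll4-Fc over hFc retinas, VEGF-A over hFc retinas and VEGF Trap over hFc retinas, 1 point per gene, filled where the adjusted p was below 0.05, with the list median as a line. In the Dll4-Fc comparison the interferon-induced genes have a median of 2.61 and the standard proteasome genes one of 0.03.

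Genes that interferons induce rose beside the members. Of 15 on the list, 15 rose in Dll4-Fc over hFc retinas (median 2.61), with Bst2 (3.34), Rtp4 (3.27) and Gbp3 (2.61) named by the rule. Of 15 interferon factors and receptors 4 rose and 0 fell, including Irf7 (2.58) and Irf8 (0.83), and Ifng, chosen after its values were seen, had 0.86 (adjusted p = 0.267). With VEGF-A, 0 of the 15 induced genes rose over hFc and 2 fell, Iigp1 at −1.51 and Rtp4 at −1.23, while B2m rose. Of the 15 interferon factors and receptors, 2 rose with VEGF-A over hFc, Irf8 by 1.16 and Irf1 by 0.38. In that comparison 1 fell, Jak2 at −0.41 (adjusted p = 0.0365 in limma). The other probes of Irf1 (0.20) and Jak2 (−0.19) did not pass. With VEGF Trap, 0 of the 15 induced genes passed against hFc in the limma test, and 2 were higher at an unadjusted p below 0.05.

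Among markers of immune cells, those of microglia and macrophages moved with the members. Of 13 microglia and macrophage markers, 11 rose and 1 fell, P2ry12 at −0.51, in Dll4-Fc over hFc retinas. The list's mean log2 ratio was 0.38 to 0.72 in Dll4-Fc retinas and −0.40 to −0.20 in hFc retinas, and all 14 markers on the list were above background on all 16 arrays. Of 5 dendritic cell markers 1 rose (Itgax, 1.04), of 9 T and NK cell markers 1 (Cd3d, 1.42) and of 6 B cell markers 2 (Cd79b, 0.97, and Ms4a1, 0.67). Of 8 neutrophil markers 0 passed the limma test in Dll4-Fc retinas, and 3 were higher at an unadjusted p below 0.05. Of 10 Müller glia markers 8 fell, and of 9 rod and cone markers 0 passed limma, with 1 lower at an unadjusted p below 0.05. Of 10 endothelial markers 4 rose and 0 fell in Dll4-Fc retinas, and their mean log2 ratio was −0.13 to 0.01 in Dll4-Fc retinas and −0.32 to −0.23 in hFc retinas, without overlap. The part of these cells in the rise of the members was not tested.

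The Dll4-Fc arrays also differed among themselves in what was high. The mean of the 5 class I genes with a value on every array was 0.46 to 1.32 in Dll4-Fc retinas, −0.37 to 0.02 in VEGF-A retinas, −0.64 to −0.48 in VEGF Trap retinas and −0.69 to −0.61 in hFc retinas. The interferon-induced list averaged 0.69, 1.27, 2.31 and 0.34 on the 4 Dll4-Fc arrays, and the microglia list 0.65, 0.38, 0.72 and 0.46. Dll4-Fc retina 3 was the highest in class I and in both lists, retina 4 was the lowest in class I and interferon-induced genes, and retina 2 was the lowest in microglia markers and in H2-Aa. With 4 arrays no correlation was computed.

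**Figure D4:**
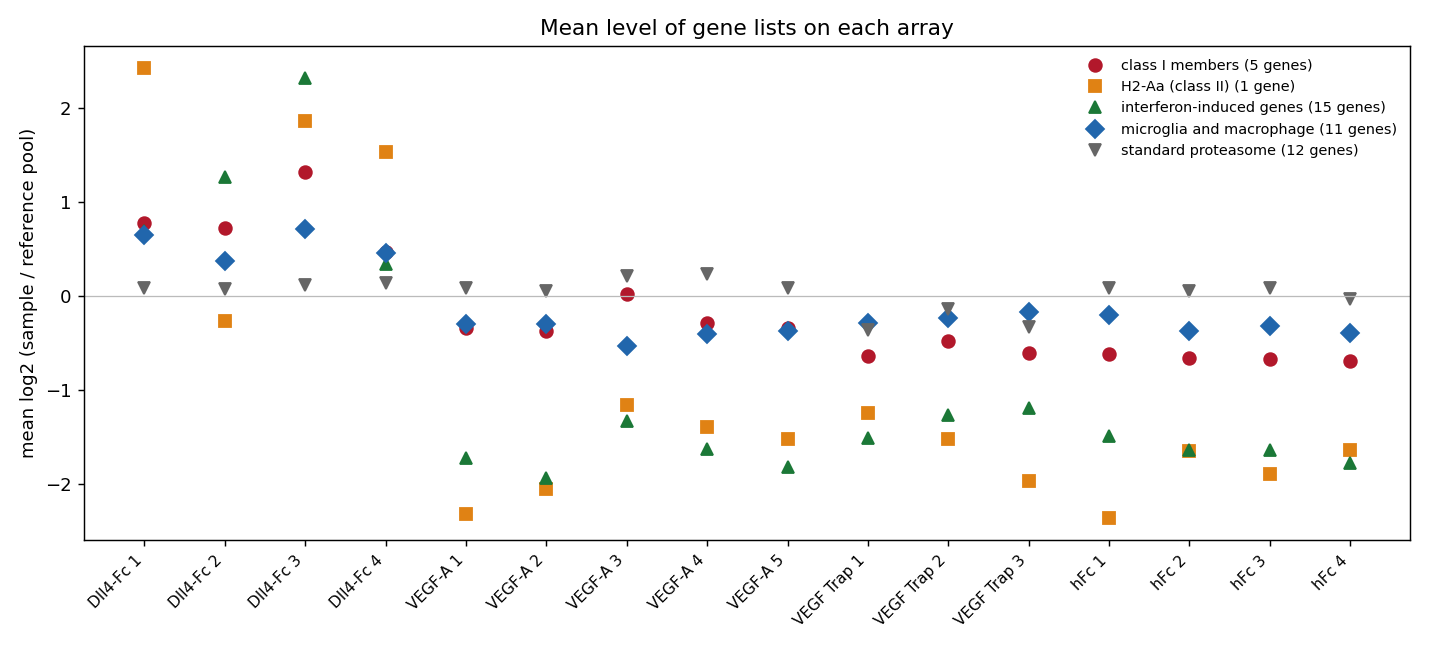
Mean log2 ratio over the reference pool of 5 class I genes, H2-Aa, the interferon-induced list, the microglia list and the standard proteasome list on each of the 16 arrays, 1 point per list and array, grouped as Dll4-Fc, VEGF-A, VEGF Trap and hFc. The interferon-induced list spans 0.34 to 2.31 in Dll4-Fc retinas and −1.77 to −1.48 in hFc retinas, and the proteasome list stays near 0 in both.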

How the data were processed

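Retinal RNA of 16 samples was hybridised in Cy3 on Agilent 4x44k mouse arrays against a common Cy5 reference, with no dye swap. Per the file headers, the intensity values came from Feature Extraction 9.5.1.1 as signals per spot, with flags for outlier spots and for spots well above background. The scanner software wrote a log10 ratio of Cy5 over Cy3, background subtracted and dye normalized, per the file headers. The deposited series matrix holds natural log ratios, which correlated with that ratio at 0.999 or more on each array. It served as an alternative.

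The log10 ratio was turned to log2 of sample over reference. Spots marked as outliers were dropped, and repeat spots of a probe averaged. The filter kept 39788 of 43426 probes, those with a Cy3 signal well above background on 3 or more arrays. Each gene was read from its probe of highest mean Cy3 signal, and 551 of the 23362 genes had no hFc value. Probes were named through RefSeq accessions and symbols. Groups followed the treatment label. A single limma 3.58.1 fit (R 4.3.3) of 4 groups gave 2-sided tests with Benjamini-Hochberg adjustment at 0.05 over all probes of a comparison. Residual degrees of freedom were 12 and prior ones 2.41, and the number of arrays limits the precision. The method was tested on simulated arrays. Members, lists and comparisons were chosen with earlier results of these data known. Beyond the members, the text names the 3 called genes of each pathway list with the smallest p in a comparison, and the 5 genes whose values correlated best with each class over the arrays. Any other gene is a marker or was picked with its values known, as is said beside it. Alternatives covered the background correction and normalization, the Cy3 signal alone, the series matrix, outlier spots, the dim filter, the slides, the groups in the fit and leaving out each sample.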

Additional observations from a re-analysis of the deposited data

Results flagged for a closer look

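The third VEGF-A retina stood apart from the other VEGF-A retinas for 3 of the 10 genes. B2m had a log2 ratio of −0.24 there, against −0.93 to −0.74 in the other 4 VEGF-A retinas. Tap2 had 0.42 there, against 0.16 to 0.23. Cd74 had −1.17 there, against −1.82 to −1.66. In each case the gap to the nearest of the others exceeded Dixon's critical value for a group of 5. Of 27 groups of 4 or 5 values tested, 3 passed, where chance gives about 1 in 20. Without this retina B2m was still higher in VEGF-A than in hFc retinas (0.59, adjusted p = 0.038), Tap2 differed by 0.18 (adjusted p = 0.312) and Cd74 by −0.09 (adjusted p = 0.887).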

How the results depend on the processing

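In Dll4-Fc over hFc retinas 9 members were called, and the count was 7 in the Cy3 signal alone and 7 with the 2 groups alone. With the band of array rows that held most hFc outlier spots left out, 6 members were measured and 5 were called, and the same setting gave 5 over VEGF-A and 5 over VEGF Trap. All probes of Cd74 and H2-Aa lay in that band, so neither class II gene was measured there. Leaving out each sample gave 7 to 10, the 7 coming without the second hFc array, where H2-K1 lost its single hFc value. In VEGF-A over hFc retinas 1 member was called, and the count was 2 with normexp and loess, 2 with the series matrix, 2 with outlier spots kept, 0 in Cy3 alone, 0 with the VEGF-A arrays of slide 3 alone, and 0 to 1 when a sample was left out (0 without the third or the fourth hFc array). In VEGF Trap over hFc retinas 0 were called in limma, but 1 with the series matrix and 1 with outlier spots kept. In VEGF-A over VEGF Trap retinas 0 were called, but 1 with the 2 groups alone, 1 within slide 3, and 0 to 1 when a sample was left out (1 without the second VEGF Trap array). Over all members, comparisons and alternatives, 1117 values kept their direction and side of the threshold, 27 lost the call, 9 gained it and 0 reversed. No paired analysis was possible because the replicate numbers here only name samples, and the title codes, whose meaning is not given, repeat across groups in a single case (VEGF-A 4 and VEGF Trap 3). With slide as a fixed block, VEGF-A over VEGF Trap still gave 0 calls in limma. H2-Aa, H2-D1 probe 3 and the dimmer B2m probes had low signal, which limits their precision. The slide of the Dll4-Fc and hFc groups cannot be told apart from the treatment.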

Other observations

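Probes of the same class I gene disagreed under VEGF Trap. The brightest probes of 13 other class I chains gave 0 calls against hFc in limma, with a median change of 0.14. Yet the dimmer probes of H2-Bl passed in 3 of 3 cases (0.98 to 1.63), those of H2-Q10 in 2 of 2 (0.94 and 0.98) and those of H2-Q1 in 1 of 2 (0.57 and 1.75). In VEGF-A over VEGF Trap retinas the dimmer H2-Bl probes fell in 3 of 3 cases (−1.94 to −1.22) and those of H2-Q1 in 2 of 2 (−2.52 and −0.61). These genes were chosen after their values were seen, and which transcripts the probes catch was not tested.

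Over the 16 arrays, the genes whose values followed the mean of 5 class I genes most closely included Ly6a (r = 0.983), Ifitm7 (r = 0.978) and Ifitm3 (r = 0.978), known as interferon-induced genes, and LOC56628 (r = 0.969). The class I mean includes H2-D1 probe 1, which the array design also lists under a LOC56628 transcript. The likeness of LOC56628 can therefore hold shared signal, which was not tested. For H2-Aa the closest genes were Napsa (r = 0.982), Rnase6 (r = 0.96), Lrrc25 (r = 0.959), Cybb (r = 0.958) and Mefv (r = 0.955). The arrays share a reference pool and fall into 4 treatment groups, so these values describe a likeness and carry no test.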
